A study of Sus scrofa with 63 samples.

Results

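The comparison described here was between male pig fetuses that had a Large White (LW) sire and either a Meishan (MS) sow, named LWMS, or an LW sow, named LWLW, at day 110 of gestation. Its members were chosen by their sample titles, which gave 9 LWMS and 9 LWLW fetuses, or 18 of the 63 fetuses measured. All of them were untreated fetuses taken from the sow by laparotomy, and total RNA from a middle segment of the jejunum was labelled with Cy3 and hybridised to a one-colour Agilent oligonucleotide array, with 1 fetus per array. Sows of both breeds had been inseminated with mixed semen, so the LWMS fetuses shared litters with purebred MS fetuses (MSMS) and the LWLW fetuses shared litters with crossbred fetuses of an MS sire and an LW sow (MSLW). The 7 MSMS and 6 MSLW fetuses of day 110, and the 9 LWMS and 9 LWLW fetuses of day 90, were used to set the same contrast of sows beside the first. LW is a lean commercial breed and MS is a Chinese breed known for piglets that survive well after birth. The sow's share of the autosomes, the X chromosome, the mitochondrial genome and the uterus all changed together with her breed. LWMS fetuses were also crossbred and LWLW fetuses purebred, and these parts cannot be told apart in this design. With MS sires this was reversed, as MSMS fetuses were purebred and MSLW fetuses crossbred. No fetus was tied to its own sow in the fit, so litter mates were counted as independent fetuses and p-values may be too small.

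In the weeks before birth the jejunal epithelium takes on the work of digestion. Villus enterocytes gain brush border hydrolases, carriers for sugars and peptides, and the apolipoproteins that package absorbed fat, while cells divide in the crypts. A male receives his X chromosome from his mother, and mitochondrial DNA also passes through the mother, so LWMS fetuses carried the X chromosome and mitochondrial genome of an MS sow and LWLW fetuses those of an LW sow. An oligonucleotide array reads a transcript through probes, and a base that differs between breeds under a probe can change its signal at an equal level of RNA.

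Several mitochondrial genes were read by overlapping probes that differ from each other in few bases, and these pairs are printed because their differences by sow breed were not alike. They were chosen after their values were seen. Each line gives the gene, the probe and the probe's bases from 5′ to 3′ as the array's files list them. Capitals mark bases that differ between the first probe of a gene and another of its probes, or that only 1 of these holds. Differences among the later CYTB probes, such as A_72_P726128 and A_72_P757587, are marked only where they also differ from the first.
CYTB A_72_P355338: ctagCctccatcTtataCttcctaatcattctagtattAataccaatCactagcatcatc
CYTB A_72_P726128: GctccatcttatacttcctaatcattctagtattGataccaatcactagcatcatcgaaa
CYTB A_72_P757587: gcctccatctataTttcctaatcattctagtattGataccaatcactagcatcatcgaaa
CYTB A_72_P749269: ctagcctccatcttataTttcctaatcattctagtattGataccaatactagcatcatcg
ND2 A_72_P719508: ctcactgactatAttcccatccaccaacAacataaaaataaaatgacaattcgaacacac
ND2 A_72_P727968: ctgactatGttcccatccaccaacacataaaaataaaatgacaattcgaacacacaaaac
COX1 A_72_P721538: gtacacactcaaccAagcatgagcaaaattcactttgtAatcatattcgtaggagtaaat
COX1 A_72_P762153: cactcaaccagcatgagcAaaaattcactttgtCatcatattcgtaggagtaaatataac
Positions are counted from 1 at the 5′ end of the first probe of each gene. Against the first CYTB probe, the second probe carried A39G, and both A_72_P757587 and A_72_P749269 carried C18T and A39G. The first base of the second probe is marked as C5G. It can also be read as the G just before that position, with 1 C lacking. The second ND2 probe carried A13G and the second COX1 probe A39C. The overlaps spanned 56 to 60 bases, and some probes also held a single base that the other lacked, which is in capitals too. The files of the array tie these bases to no genome build, so no coordinates are given.

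The 18 arrays correlated with each other at 0.92 to 0.989 over 40416 probes. Probes well above background made up 60.4 to 72.1% of each LWMS array (mean 67.7%) and 51.2 to 71.5% of each LWLW array (mean 62%), a difference of 5.69 percentage points with an exact permutation p of 0.0243 over the 48620 splits of the 18 arrays (two-sided). The LWLW fetuses 557, 559, 572 and 575 stood apart from all others along the first principal component, which held 36.1% of the variance. Their scores were 88.6 to 118.6, whereas the other 14 fetuses lay between -107.5 and 55.9. Fetus 609, at 55.9, was the LWMS fetus nearest to them, and fetus 469 (LWLW) lay apart on the third component at -138 and had the lowest share of probes above background. Whether these 4 LWLW fetuses shared a sow is not given in the sources used here, so they may be litter mates. The main results are therefore given with and without them, an alternative chosen after seeing the data. Of the markers of jejunal enterocytes, 8 were measured and all 8 were above 0 in difference, with 2 called. Their mean level was 3.68 to 5.28 in LWMS and 1.63 to 4.98 in LWLW, so they were above the 75th percentile of the array in every fetus. Of 9 markers of erythroid cells, 1 was higher and 2 lower in LWMS, and their mean level was -2.59 to -1.05 in LWMS and -1.67 to -0.44 in LWLW. In whole tissue, fewer cells of a type and less RNA per cell cannot be told apart.

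At day 110, 4274 of 40515 probes differed between LWMS and LWLW (10.5% of the probes tested, limma, adjusted p under 0.05), of which 1843 were higher in LWMS (4.55%) and 2431 lower (6%). At an unadjusted p under 0.05 there were 10731. The brightest probe of each of 9984 named genes gave 1185 called genes (11.9%), 642 higher (6.43%) and 543 lower (5.44%), and this is the background for the gene lists. Levels are log2 signals minus the array's 75th percentile and differences are LWMS minus LWLW. The median difference was -0.01 over all probes and 0.03 over the brightest probe of each gene. Higher probes made up 43.1% of those called, but 81.5% when arrays were centred on their median, which raised the median of all probes to 0.19, and 54.4% after quantile normalization. Without the 4 LWLW fetuses, 364 probes were called (0.898%), 188 higher and 176 lower, and 330 of these were among the 4274. Leaving out 1 fetus at a time gave 2435 called probes without fetus 559 to 5877 without fetus 609. The number was also more than 1.5 times lower without fetus 557 (2457), fetus 572 (2642), fetus 575 (2691) or the LWMS fetus 633 (2738). Slides of the array were a possible batch: 6 of 8 held both groups, and with the slide as a block 4586 probes were called. The 2 groups did not overlap at all in 185 probes (0.457%).

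**Figure D1:**
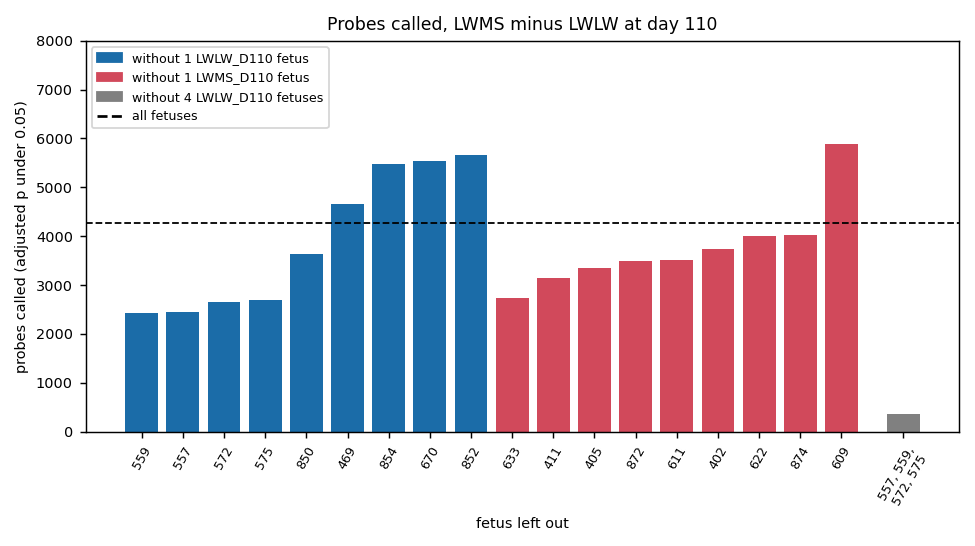
Number of probes called between LWMS and LWLW at day 110 (vertical axis) when 1 fetus was left out (horizontal axis: fetus number, blue for LWLW and red for LWMS) or when the 4 LWLW fetuses 557, 559, 572 and 575 were left out together (grey). The dashed line is the number with all fetuses, 4274; each of the 4 fetuses lowered it to between 2435 and 2691 on its own, and leaving out all of them gave 364.

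Many genes of digestion and absorption rose in LWMS. Brush border hydrolases, carriers of peptides and sugars, enzymes of fructose and glucose handling, apolipoproteins and enzymes of xenobiotic metabolism had medians of 0.44 to 1.07 on the log2 scale, beside 0.03 over all genes. For MGAM, SLC15A1, SLC5A1, PCK1 and APOC3 the 4 LWLW fetuses that stood apart lay below every LWMS fetus, while the other 5 LWLW fetuses lay within or near the range of LWMS.

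Among the brush border enzymes, 6 of 15 measured genes were higher in LWMS and none lower, with a median difference of 1.04. Those that rose included TMPRSS15 (enteropeptidase, which activates trypsinogen), MGAM (maltase-glucoamylase), MME (neprilysin, a peptidase), GGT1 (which cleaves glutathione) and NAALADL1. MGAM ranged from -1.01 through a median of 0.87 to 1.88 in LWMS, and from -3.29 through -0.21 to 0.64 in LWLW. The groups overlapped, and the 4 LWLW fetuses at -3.29 to -2.04 lay below every LWMS fetus. Its difference was 1.88 ± 0.53 (SE; limma, adjusted p = 0.0164) with all fetuses and 0.5 (adjusted p = 0.886) without the 4. TMPRSS15 was 1.87 to 6.42 (median 4.54) in LWMS, against -0.61 to 5.36 (median 2.82) in LWLW, and differed by 2.29 ± 0.75 (adjusted p = 0.0381). Lactase (LCT) and sucrase-isomaltase (SI), the other main disaccharidases, differed by 1.32 ± 0.46 and 1.8 ± 0.72 without passing the test. Without the 4 fetuses none of the 15 was called, and the median was 0.25.

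For peptide and amino acid transport, 6 of 11 genes were higher in LWMS and none lower, with a median difference of 1.07. SLC15A1 (the peptide carrier PEPT1 of the brush border) was 2.26 to 4.13 (median 3.71) in LWMS, against -1.32 to 3.52 (median 2.88) in LWLW. The 4 LWLW fetuses lay at -1.32 to 0.8 and the other 5 at 2.88 to 3.52, so that the latter were within the range of LWMS. The difference was 1.9 ± 0.49 (limma, adjusted p = 0.00839), and 0.49 without the 4 (adjusted p = 0.849). SLC1A1, a glutamate carrier, kept more of its difference. It was -2.47 to -1.12 (median -1.7) in LWMS, against -3.64 to -2.03 (median -3.36) in LWLW, with 7 LWLW fetuses below the lowest LWMS fetus. The difference of 1.39 ± 0.25 (adjusted p = 0.000185) was 1.07 without the 4 fetuses (adjusted p = 0.0588). SLC38A3 (a glutamine carrier), SLC43A2, SLC6A19 (the main carrier of neutral amino acids in the brush border) and SLC3A2 also rose, by 2.15, 1.22, 1.07 and 0.75. None of the 11 genes was called without the 4 fetuses.

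Sugar handling held rises that passed the test with and without those 4 fetuses. Of 20 genes of hexose transport, fructose and glucose production, 7 were higher in LWMS and none lower, with a median of 0.48. G6PC, the catalytic unit of glucose-6-phosphatase that releases free glucose, was 0.12 to 1.82 (median 1) in LWMS, against -5.1 to 0.28 (median -1.9) in LWLW. Of the 9 LWLW fetuses, 8 were below the lowest LWMS fetus, and the 4 that stood apart were the lowest at -5.1 to -3.57. Its difference was 3.29 ± 0.46 (9.81-fold; limma, adjusted p = 1.93e-06), and 1.82 without the 4 (adjusted p = 0.0144). Ketohexokinase (KHK), which phosphorylates fructose, was 1.06 to 2.55 (median 1.54) in LWMS, against -0.73 to 1.44 (median -0.12) in LWLW. Again 8 LWLW fetuses were below every LWMS fetus. KHK differed by 1.52 ± 0.24 (adjusted p = 1.52e-05) and by 1.22 without the 4 fetuses (adjusted p = 0.0131), so G6PC and KHK were the 2 genes of this list called in both. PCK1 and PCK2 (phosphoenolpyruvate carboxykinases), GPT (alanine aminotransferase) and SLC5A1 (the sodium-glucose carrier SGLT1) rose by 1.69, 1.05, 1.08 and 1.32. SLC5A1 was 5.69 to 7.19 in LWMS, 2.96 to 4.87 in the 4 LWLW fetuses and 5.94 to 6.58 in the other 5. Its difference without the 4 was 0.36 (adjusted p = 0.856).

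In the list of apolipoproteins and lipid absorption, 4 of 19 genes were higher and 2 lower, with a median of 0.93. APOC3, an apolipoprotein of triglyceride-rich particles, was read by a brightest probe at 5.76 to 7.71 (median 7.5) in LWMS, against 1.97 to 7.73 (median 6.01) in LWLW. The highest fetus of all was an LWLW fetus, and the 4 that stood apart lay at 1.97 to 2.74. The difference was 2.34 ± 0.7 (limma, adjusted p = 0.0239), and 0.26 without them (adjusted p = 0.975). APOA4, another apolipoprotein, rose by 1.7 ± 0.59 (adjusted p = 0.0494), and differed by 0.15 without the 4 (adjusted p = 0.986). SCARB1, a lipoprotein receptor, rose by 0.91 ± 0.19 (adjusted p = 0.00149). APOD was -1.98 to -1.15 (median -1.42) in LWMS, against -3.74 to -1.35 (median -2.51) in LWLW. It rose by 1.07 ± 0.26 (adjusted p = 0.00526) and was the 1 gene of the list called without the 4 fetuses (1.21, adjusted p = 0.0393). PLIN2, a coat protein of lipid droplets, and CD36, a fatty acid translocase, fell by 0.65 and 0.7. Fatty acid oxidation and ketone bodies gave 1 rise among 18 genes, EHHADH of the peroxisome at 0.88, and none of 12 genes of cholesterol synthesis was called.

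**Figure D2:**
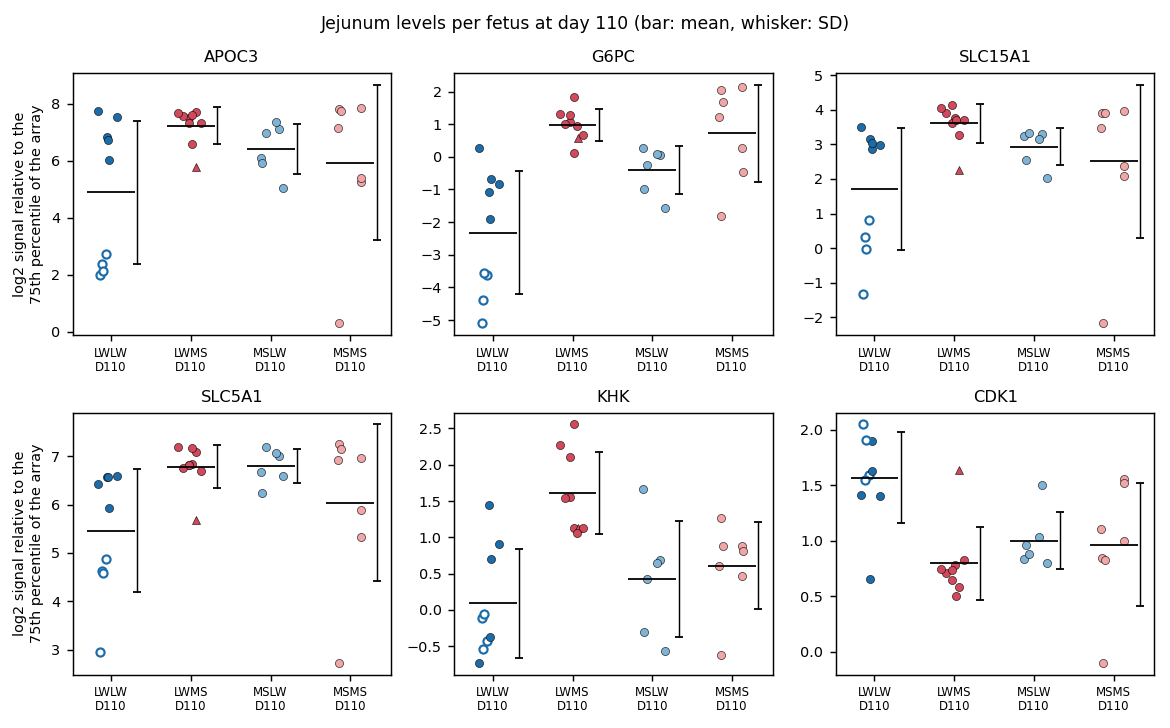
Level of APOC3, G6PC, SLC15A1, SLC5A1, KHK and CDK1 in each fetus of the 4 genotypes at day 110 (vertical axis: log2 signal minus the array's 75th percentile). Each point is a fetus, the bar the mean and the whisker the SD. Open circles are the LWLW fetuses 557, 559, 572 and 575 and the triangle is the LWMS fetus 609. The open circles are the lowest LWLW fetuses for APOC3, G6PC, SLC15A1 and SLC5A1.

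Ion channels, pumps and drug-metabolising enzymes were also higher in LWMS. Of 26 claudins, junction and ion transport genes, 6 were higher and none lower (median 0.37), and of 17 genes of xenobiotic metabolism 4 were higher and none lower (median 0.44). Carbonic anhydrase CA2 was 3.97 to 5.22 (median 4.64) in LWMS, against 1.73 to 3.9 (median 3.07) in LWLW, so the groups did not overlap. It differed by 1.75 ± 0.34 (limma, adjusted p = 0.000485), and by 1.24 without the 4 fetuses (adjusted p = 0.123). SCNN1A (the alpha subunit of the epithelial sodium channel) and AQP3 (a water and glycerol channel) rose by 2 and 2.03, SLC9A2 (a sodium-proton exchanger) by 0.97, and ATP1B1 (a subunit of the sodium pump) by 0.43. The xenobiotic genes that rose were the cytochromes CYP3A29 and CYP3A46, the arsenic methyltransferase AS3MT and the aldehyde dehydrogenase ALDH2, by 1.97, 1.37, 1.14 and 0.77. No gene of either list was called without the 4 fetuses.

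The largest rises by the fixed rule were BCL2L15, SLC27A2, G6PC, PAFAH2, CD5L, PGM1, ABCB11, APOC3, SLC28A1 and FTCD, at 3.69 down to 2.41. BCL2L15, a member of the BCL2 family on chromosome 4, was 2.4 to 4.17 (median 3.82) in LWMS, against -1.51 to 1.07 (median -0.05) in LWLW. The groups did not overlap, and LWMS was higher on all 6 slides that held both. Its difference was 3.69 ± 0.38 (12.9-fold; limma, adjusted p = 6.11e-10), and 2.91 without the 4 LWLW fetuses (adjusted p = 8.81e-06). PAFAH2, an acetylhydrolase of platelet-activating factor on chromosome 6, was 0.83 to 1.89 (median 1.57) in LWMS, against -1.92 to -0.78 (median -1.28) in LWLW, again with no overlap. The difference was 2.91 ± 0.35 (adjusted p = 3.15e-08) and 2.54 without the 4 (adjusted p = 0.000117). Of 2 probes for PAFAH2, 1 was called, and the other gave -0.06. PGM1 (phosphoglucomutase, which links glycogen with glycolysis) was 2.27 to 3.33 (median 3.06) in LWMS, against -1.42 to 2 (median 0.39) in LWLW. It differed by 2.54 ± 0.43 (adjusted p = 7.72e-05) with all fetuses and by 2.96 without the 4 (adjusted p = 6.06e-05).

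The fatty acid carrier and activating enzyme SLC27A2 was -0.16 to 1.86 in LWMS, -1.75 to -0.8 in 5 LWLW fetuses and -4.2 to -3.58 in the 4 that stood apart. Its difference of 3.48 ± 0.6 (limma, adjusted p = 0.000111) was 2.28 without the 4 (adjusted p = 0.0895), with no overlap of the groups in either case. CD5L (a secreted protein of macrophages), ABCB11 (the bile salt export pump), SLC28A1 (a nucleoside carrier) and FTCD (an enzyme of histidine and folate metabolism) overlapped between the groups and were not called without the 4 fetuses. Of the 3 probes of FTCD, 2 were higher in LWMS and the dimmest was lower (-0.66, limma adjusted p = 0.0247). AADAT, a mitochondrial aminotransferase of lysine and kynurenine breakdown on chromosome 14, was well above background on all 9 LWMS arrays and on none of the LWLW arrays. Its levels were -1.79 to 0.79 (median -1.25) in LWMS, against -7.62 to -4.65 (median -6.44) in LWLW. Against the lowest signal well above background, LWMS was at least 14.2-fold higher (measured difference 5.62, limma adjusted p = 1.42e-08), and without the 4 fetuses the measured difference was 5.57 (adjusted p = 8.81e-06).

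The largest falls were NPM2, TMEM27, HBB, CCDC17, PBDC1, HERC5, CACNA1E, TMEM107, OASL and EMC9, at -3.23 to -2. TMEM107 and EMC9 each had a further probe that was not called, at 0.06 and 0.09. NPM2, a histone chaperone of the nucleoplasmin family, was -5.9 to -4.7 (median -5.05) in LWMS, against -4.3 to -0.91 (median -1.78) in LWLW, without overlap. The difference was -3.23 ± 0.5 (limma, adjusted p = 1.52e-05) and -3.13 without the 4 (adjusted p = 0.00235). PBDC1 was -5.48 to -3.92 (median -4.1) in LWMS, against -2.78 to -2 (median -2.31) in LWLW. This probe and a second one (A_72_P267726) gave -2.09 ± 0.23 and -2.08 ± 0.25, with adjusted p-values of 3.72e-09 and 3.15e-08, whereas the remaining probe of PBDC1 was 0.35 ± 0.16 (adjusted p = 0.15). Beta globin (HBB) was -5.26 to 0.97 (median -0.71) in LWMS, against 0.02 to 1.71 (median 1.2) in LWLW, a difference of -2.4 ± 0.52 (adjusted p = 0.00175) and of -2.1 without the 4 (adjusted p = 0.0962). HBA1, an alpha globin, moved with it (-1.31 ± 0.31, adjusted p = 0.00457). The part of blood left in the tissue in these 2 differences was not tested.

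Genes of cell division were lower in LWMS. Of 21 cell cycle genes measured, 12 fell and none rose, with a median of -0.56. Those that fell were the mitotic kinases PLK1, AURKA and CDK1, the cyclins CCNB1 and CCNB2, the checkpoint genes BUB1, CDC20 and BIRC5, the topoisomerase TOP2A, and the replication genes MCM3, MCM4 and PCNA, at -0.97 to -0.45. AURKA was -1.1 to -0.2 (median -0.8) in LWMS, against -0.41 to 0.9 (median 0.35) in LWLW. The groups overlapped, with 7 LWLW fetuses above the highest LWMS fetus. Its difference was -0.91 ± 0.16 (limma, adjusted p = 0.000115), and -0.64 without the 4 (adjusted p = 0.0608). The number of genes that fell was 9 after quantile normalization and 2 when arrays were centred on their median. Without the 4 LWLW fetuses none of the 21 was called and the median was -0.28.

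**Figure D3:**
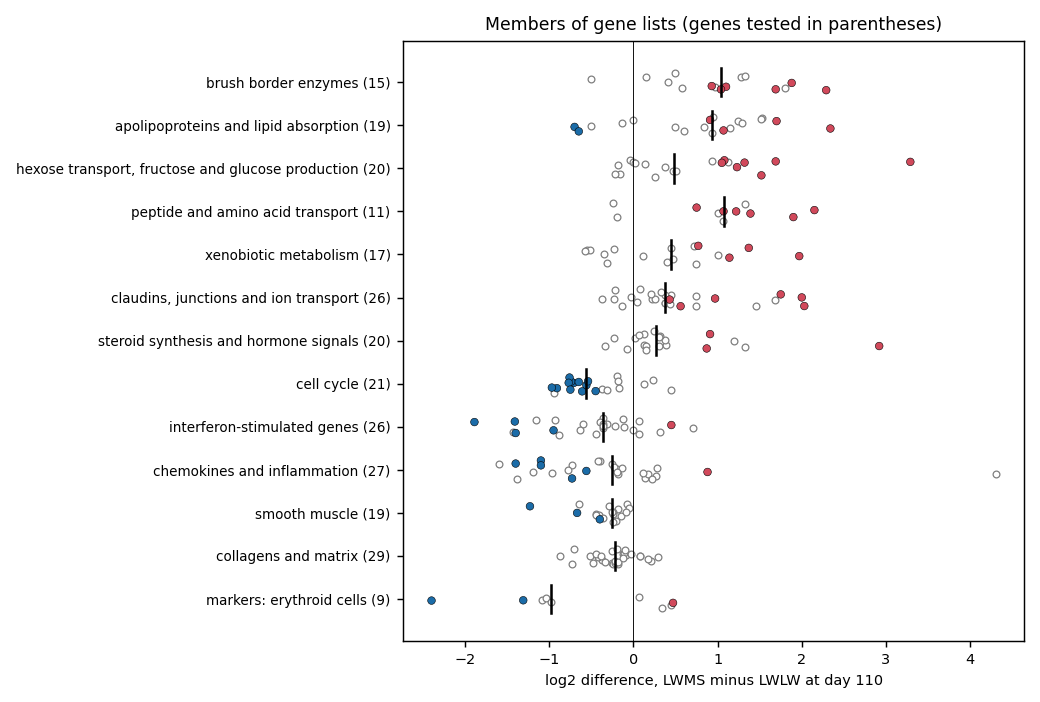
Log2 difference between LWMS and LWLW at day 110 (horizontal axis) for each member of 13 gene lists, with 1 brightest probe per gene and the number of genes measured in parentheses. Filled points passed the test (red higher in LWMS, blue lower), open points did not, and black bars are medians. The medians of brush border enzymes and of peptide and amino acid transport lie near 1, that of the cell cycle at -0.56.

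The immune genes called between LWMS and LWLW were mostly lower in LWMS. For background, 11.9% of all 9984 named genes were called, 6.43% higher and 5.44% lower. Whether the immune lists held more calls than that share was not tested. Among 26 interferon-stimulated genes, 4 fell and 1 rose (median -0.36), and among 27 genes of chemokines and inflammation 5 fell and 1 rose (median -0.26). OASL, an antiviral oligoadenylate synthetase-like gene, was -4.31 to -2.88 (median -3.69) in LWMS, against -4.05 to 3.21 (median -3.15) in LWLW by its brightest probe. The LWLW group was widely spread, and 4 of its fetuses were above every LWMS fetus. The differences were -1.89 for OASL, -1.41 for MX2, -1.4 for ISG15 and -0.95 for IFI44L, while STAT2, a transcription factor of the interferon response, rose by 0.45. CCL2, which attracts monocytes, was 0 to 1.7 (median 1.09) in LWMS, against 1.6 to 2.94 (median 2.08) in LWLW. Its fall of -1.1 ± 0.23 (limma, adjusted p = 0.00107) was -0.9 without the 4 fetuses (adjusted p = 0.0971). IL1B, IL6, CXCL12 and CXCL14 fell by 1.4, 1.1, 0.73 and 0.56, and IL18 rose by 0.88. When arrays were centred on their median, the falls numbered 2 in each of these lists. In the macrophage list 1 of 15 genes fell (FCGR1A, an Fc receptor, -1.71). It was well above background on only 2 LWMS and 5 LWLW arrays, so the size of its fall is uncertain. In the swine MHC SLA-DOA fell by 0.89 and SLA-8 rose by 0.3 among 17 genes, and none of 19 lymphocyte genes was called. For mucosal defence and complement, DMBT1 (a mucosal binding protein) rose by 1.36 and C6 fell by 0.8 among 28 genes. No immune gene of these lists was called without the 4 fetuses.

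Hormone and polyamine genes included rises and 1 fall in LWMS. Of 20 genes of steroid synthesis and hormone signals, 3 were higher in LWMS, CYP17A1 (a steroid hydroxylase), TSC22D3 and FKBP5 (both known targets of glucocorticoids). CYP17A1 was -4.25 to -0.23 (median -0.96) in LWMS, against -8.13 to -2 (median -3.71) in LWLW, and was well above background on 9 LWMS and 4 LWLW arrays. By this probe CYP17A1 differed by 2.92 ± 0.68 (limma, adjusted p = 0.00355), and by 1.3 without the 4 fetuses (adjusted p = 0.526). The size is uncertain because some LWLW arrays were not well above background. Of the 4 probes of CYP17A1, 2 were called, and their differences ran from 0.35 up to the 2.92 of this one. TSC22D3, which is X-linked, did not overlap, with 2.09 to 3.05 in LWMS against 1.48 to 2.08 in LWLW. The difference was 0.87 ± 0.17 (adjusted p = 0.00071), and 0.73 without the 4 (adjusted p = 0.0753). FKBP5 rose by 0.91 ± 0.29 (adjusted p = 0.0343), and differed by 0.56 without the 4 (adjusted p = 0.64). For polyamines, arginine and branched-chain amino acids, ASS1 (argininosuccinate synthase) and SMS (spermine synthase) rose by 1.75 and 0.81 and IVD (isovaleryl-CoA dehydrogenase) fell by 0.87 among 16 genes. Without the 4 fetuses these 3 genes differed by 0.41, 0.46 and -0.57 and none passed the test (limma, adjusted p = 0.934, 0.717 and 0.256).

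The lists of other tissues and functions held calls in both directions. In smooth muscle, 3 of 19 genes fell (SYNPO2, CASQ2 and ACTA2, at -1.23, -0.67 and -0.4), all 19 differences were negative and the median was -0.26. Without the 4 LWLW fetuses none of the 19 was called, 12 differences were positive and the median was 0.04. None of 29 genes of collagens and matrix was called (median -0.22), nor any of 19 genes of endothelium and angiogenesis, 16 gut hormones or 7 goblet cell genes. Among 15 epithelial transcription factors, the bile acid receptor NR1H4 and HNF4A rose by 1.22 and 0.6 and GATA4, a factor of proximal intestine, fell by 1.55. Without the 4 they differed by 0.25, 0.5 and -1.36, and none passed the test. In heat shock proteins, CIRBP and HSPA4 rose by 0.8 each and JMJD6 and HSPH1 fell by 0.33 and 0.42 among 18 genes, and HSPA4 was also called without the 4 fetuses (1.07, adjusted p = 0.0252 with limma). Single genes were called among 16 crypt and Wnt genes (EPHB2, -1.04), 27 of oxidative phosphorylation (NDUFB9, 0.63) and 16 of fetal plasma proteins and endocytosis (AFP, 1.52, and 1.07 without the 4). Among 20 imprinted genes NDN and MEG3 fell by 0.54 and 1.18, and differed by -0.28 and -0.16 without the 4 (limma, adjusted p = 0.685 and 0.975). Among 17 enteric neuron and glia genes, UCHL1 fell by 0.64. In the marker lists of neighbouring tissues, AFP and HPX of 8 liver markers and GP1BB of 4 platelet markers were higher, ACTA2 of 7 smooth muscle layer markers was lower, and none of 4 pancreas, 7 stomach, 3 ileum and colon, 1 mesothelium or 6 fat markers was called. Of the called genes named in these lists and marker lists, HSPA4 alone was called without the 4 fetuses.

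X-linked genes differed in both directions between LWMS and LWLW. Of 762 X-linked probes, 110 were called (14.4%, against 10.5% of all probes), 52 higher and 58 lower in LWMS, in 71 of 344 genes. Each of these genes was called in 1 direction only, 32 higher and 39 lower. Without the 4 fetuses 27 X-linked probes were called (3.54%, against 0.898% of all probes). The groups did not overlap in 17 X-linked probes (2.23%, against 0.457% of all probes).

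The X-linked genes of lowest p included FAM199X, ARMCX6, IQSEC2, MUM1L1 and PRPS2. FAM199X was -8.27 to -6.86 (median -7.81) in LWMS, where no array was well above background, and -4.31 to -3.49 (median -3.86) in LWLW, where 7 were. LWLW was at least 3.52-fold higher by the bound set at the lowest signal above background (measured difference -3.86 ± 0.31, limma adjusted p = 4.68e-14), and those of its other probes were -1.02 ± 0.14 and -0.54 ± 0.12 (adjusted p = 1.78e-06 and 0.00275). ARMCX6 was -1.93 to -1.13 (median -1.54) in LWMS, against -0.75 to 0.29 (median -0.2) in LWLW, a difference of -1.27 ± 0.15 (adjusted p = 1.34e-08).

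IQSEC2 was -1.66 to -0.91 (median -1.19) in LWMS, against -0.67 to 0.19 (median -0.36) in LWLW, and MUM1L1 -3.21 to -1.89 (median -2.69) against -1.87 to -0.39 (median -1.08). Their differences were -0.91 ± 0.12 and -1.58 ± 0.21 (limma, adjusted p = 1.43e-07 and 6.83e-07), and all 2 probes of IQSEC2 and all 3 of MUM1L1 were called. PRPS2, a phosphoribosyl pyrophosphate synthetase of nucleotide synthesis, was higher in LWMS, at 0.56 to 1.08 (median 0.84) against -0.51 to 0.25 (median -0.09). It rose by 0.95 ± 0.13 (adjusted p = 8.08e-07), a second probe rose by 0.74 and the other one gave 0.1 (adjusted p = 0.628). All of these 5 genes kept 1 direction on the 6 slides that held both groups and were called without the 4 LWLW fetuses. TMEM27, a partner of amino acid carriers, was also X-linked and fell by 2.5 ± 0.53 (adjusted p = 0.00153), and by 2.22 without the 4 (adjusted p = 0.0846). SMS was read by 2 probes. A dim one (A_72_P014371) was -3.8 to -2.19 (median -3.57) in LWMS, well above background on 9 arrays, and -8.02 to -4.6 (median -6.44) in LWLW, above background on 1. Its measured difference was 3.08 ± 0.52 (adjusted p = 7.98e-05), and 3.13 without the 4 fetuses (adjusted p = 0.00239), but most LWLW arrays were at background, so its size is uncertain and was not set against that of the bright probe, given above.

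**Figure D4:**
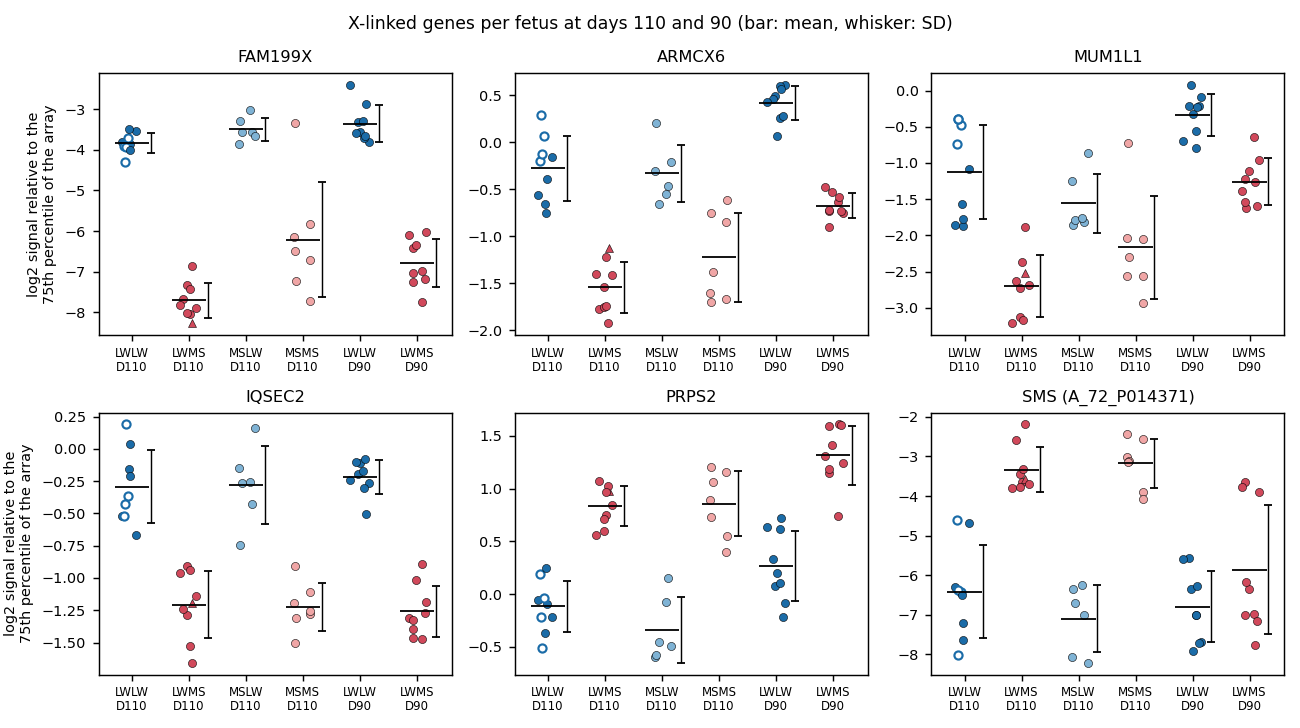
Level of 6 X-linked genes in each fetus by genotype at days 110 and 90 (vertical axis: log2 signal minus the array's 75th percentile; point: fetus, bar: mean, whisker: SD). Open circles are the 4 LWLW fetuses that stood apart and the triangle is fetus 609. LWMS and LWLW fetuses do not overlap at day 110 in any of the panels, and the open circles overlap the other LWLW fetuses in all panels but that of MUM1L1, where they lie above them.

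Mitochondrial probes changed in both directions within single genes. Of 127 probes for mitochondrially encoded genes, 38 were called (29.9%), 24 higher and 14 lower, in 8 of 13 genes. ND4 (a subunit of complex I) had 6 of 11 probes higher and none lower, and ND2 had 4 of 12 lower and none higher. CYTB (cytochrome b) had 10 of 21 probes higher and 2 lower, COX1 4 of 25 higher and 3 lower, and ND1 2 of 20 higher and 4 lower. By the brightest probe of each gene, ND4 and ND4L rose by 0.46 and 0.57 and the median over the 13 genes was 0.17. Without the 4 fetuses no brightest probe was called and the median was 0.09.

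The overlapping CYTB probes printed above gave unlike differences. A_72_P726128 was 5.97 to 6.71 (median 6.48) in LWMS, against 7.13 to 7.82 (median 7.34) in LWLW, without overlap, and A_72_P355338 gave -0.64 ± 0.13 beside the -0.88 ± 0.12 of the former (limma, adjusted p = 0.00073 and 1.91e-06). The 2 probes that carried C18T gave -0.18 ± 0.12 and 0.16 ± 0.13 (adjusted p = 0.377 and 0.465). Within an array, A_72_P726128 minus A_72_P757587 was -0.68 to -0.4 in LWMS and 0.06 to 0.27 in LWLW, and -0.63 to -0.43 in MSMS and 0.11 to 0.37 in MSLW, so the 2 probes changed unequally with the breed of the sow. The ND2 pair gave -2.08 ± 0.34 and -0.35 ± 0.2 (adjusted p = 5.15e-05 and 0.263), and within an array the first minus the second was -3.4 to -1.87 in LWMS and -1.01 to -0.78 in LWLW. Both COX1 probes fell, by 1.08 ± 0.17 and 2 ± 0.41 (adjusted p = 1.16e-05 and 0.000952). The probe of ND1 with the largest rise (A_72_P758032) was 6.61 to 7.24 in LWMS and 5.36 to 6.36 in LWLW, a difference of 1.09 ± 0.13 (adjusted p = 3.22e-08). Without the 4 LWLW fetuses the called probes of CYTB gave -0.97 and -0.71, that of ND2 -2.26, those of COX1 -1.11 and -2.19 and that of ND1 0.86, all past the test. The level of a transcript and the match of a probe to the breed's bases cannot be told apart from these probes.

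The same contrast of sows in fetuses of MS sires (MSMS minus MSLW) gave 784 called probes (1.94%). It used no fetus of the first comparison but may share its litters, and here the fetuses of MS sows were the purebred ones. Of the 4274 probes called with LW sires, 73.6% had the same sign with MS sires, where 58.3% of all probes tested did, and 7.44% were also called. The share with the same sign was 67.8% for the other mapped probes (2237 called), 80.9% for X-linked probes and 100% for mitochondrial probes. Of these, 6.03%, 20% and 78.9% were also called. Called probes without a chromosome entry are in none of these shares and count only in the 73.6%. FAM199X, ARMCX6, IQSEC2 and PRPS2 differed by -2.71, -0.89, -0.94 and 1.2 with MS sires and all passed the test, and MUM1L1 was -0.61 (limma, adjusted p = 0.23). Among the gene lists, medians with MS sires were -0.38 for brush border enzymes, -0.43 for peptide and amino acid transport, -0.52 for apolipoproteins and lipid absorption, 0.08 for hexose genes and 0.06 for the cell cycle. With MS sires 1 apolipoprotein and lipid gene and 1 hexose gene were called, and 0 genes of the other lists named here. MSMS fetuses were widely spread. SLC15A1 was -2.18 to 3.97 (median 3.48) in MSMS, against 2.01 to 3.33 (median 3.2) in MSLW, with a difference of -0.42. MGAM was -3.73 to 1.14 (median 0.02) in MSMS, against -1.78 to 1.63 (median 0.37) in MSLW.

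The difference between the 2 sow contrasts at day 110 was called in 77 probes (0.19%), 58 of them higher with LW sires (0.143%) and 19 lower (0.0469%), and 45 of the 77 were also called in LWMS minus LWLW. CYP17A1 differed by 6.68 ± 1.05 (limma, adjusted p = 0.000222), with 2.92 under LW sires and -3.76 under MS sires, and arrays not above background were among those of LWLW. Other called probes of CYP17A1 gave 4.64 and 3.85. CD5L (4.76), SLC38A3 (3.74), SCARB1 (1.26) and ALDH2 (1.41) also rose under LW sires and had negative differences under MS sires. AADAT had measured differences of 5.62 under LW sires and 1.35 under MS sires, of which the first is known only as at least 14.2-fold. The lowest p belonged to a probe with no gene name (A_72_P417829, named after its values were seen), at -1.33 under LW sires and -6.76 under MS sires, both lower with an MS sow. The named genes of lowest p, MTFP1, TMOD3 and AQP10, were not called under LW sires by the probes concerned. MTFP1 was 0.24 in MSLW and -4.82 in MSMS (means), a difference of 4.72 between the contrasts, and TMOD3 and AQP10 followed with 3.84 and 5.53. Without the 4 LWLW fetuses the number of probes was 13.

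At day 90, 336 probes were called between LWMS and LWLW (0.829%), in other fetuses. Of the 4274 probes called at day 110, 82.7% had the same sign at day 90, where 67.8% of all probes did, and 5.08% were called at both ages. For X-linked probes these shares were 94.5% and 24.5%, for mitochondrial probes 97.4% and 65.8%, and for the other mapped probes 83.7% and 3.8%. BCL2L15 differed by 3.41 at day 90 (limma, adjusted p = 1.12e-08), AADAT by 4.28, PAFAH2 by 1.6, PGM1 by 1.87 and PBDC1 by -1.99, all past the test. FAM199X was at least 3.31-fold lower in LWMS, where no array was above background (adjusted p = 6.61e-12). G6PC (0.16), KHK (0.04), SLC15A1 (-0.03) and APOC3 (-0.17) were not called at day 90, and the medians were 0.02 for brush border enzymes and 0.01 for the cell cycle.

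**Figure D5:**
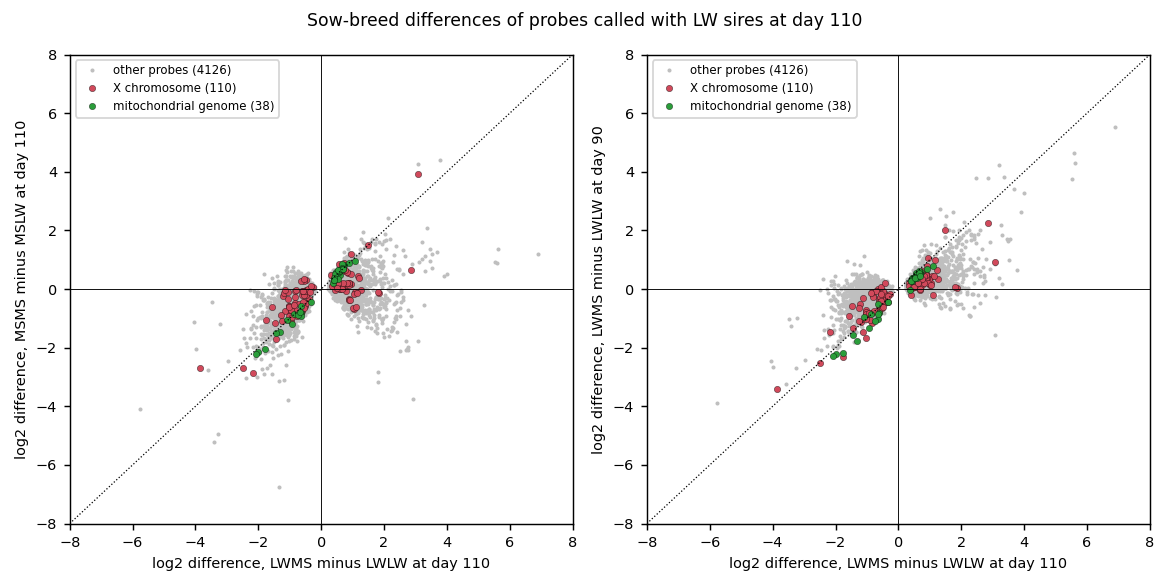
Log2 difference of the probes called in LWMS minus LWLW at day 110 (horizontal axis) beside their difference in MSMS minus MSLW at day 110 and in LWMS minus LWLW at day 90 (vertical axes), with X-linked probes in red, mitochondrial probes in green and all others in grey. The dotted line marks equal differences. All 38 mitochondrial probes and 89 of 110 X-linked probes had the same sign with MS sires.

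The change of the sow contrast between ages was called in 15 probes (0.037%), 6 of them higher at day 110 (0.0148%) and 9 lower (0.0222%). CYP11A1, the enzyme that starts steroid synthesis from cholesterol, was called by 4 of its 6 probes, none of them well above background on any of the 18 arrays at day 110. By the probe of lowest p it was at least 16.1-fold higher in LWMS than in LWLW at day 90, where 9 LWMS arrays and no LWLW array were above background (measured difference 5.25, limma adjusted p = 1.8e-09). The other 2 probes of CYP11A1 gave 0.56 and 0.39 at day 110 and 1.66 and 1.53 at day 90, and their change between the ages was not called. SRPX2, an X-linked secreted protein, gave -0.16 and 0.41 on its 2 probes at day 110 and -1.92 and -0.91 at day 90. G6PC changed by 3.14 between the ages (adjusted p = 0.0341), XPO5 (a nuclear exporter of microRNA precursors) by -1.66 and NFE2L3 (a transcription factor) by -2.29. XPO5 was -4.64 to -2.49 (median -3.37) in LWMS, against -2.89 to -1.61 (median -1.85) in LWLW at day 110, a difference of -1.56 ± 0.21 (adjusted p = 3.7e-07).

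The reciprocal crosses LWMS and MSLW carry 1 autosomal set of each breed and differ in the breed of both sow and sire. They share the LWMS fetuses with the first comparison, so values are only set side by side. LWMS minus MSLW was called in 269 probes (0.664%). The X-linked genes ARMCX6, IQSEC2, MUM1L1 and PRPS2 gave -1.21, -0.93, -1.15 and 1.18, PBDC1 gave -1.99, and FAM199X was at least 4.45-fold lower in LWMS. KHK was called at 1.18, and BCL2L15, PAFAH2, PGM1 and AADAT, at 1.11, 0.24, -0.08 and 0.7, were not. The medians were 0.23 for brush border enzymes, 0.08 for peptide and amino acid transport and -0.21 for the cell cycle.

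Of 28 probes in the study's table of genes with parental effects, 26 were tested, 3 were higher in LWMS at day 110 and 5 lower. The study chose these probes on these fetuses, so the counts are not independent evidence. SMS and MAP2K1 (a kinase of the MAPK pathway) rose, the latter by 0.52 ± 0.14 (limma, adjusted p = 0.00972), and MTFR2, PAK2, BAG6 and JMJD6 fell by 0.81, 0.97, 0.85 and 0.33. The probes A_72_P258182 and A_72_P409313, which have no gene name in the files, differed by 1 and -1.31. MTFR2 was -2.95 to -2.51 (median -2.79) in LWMS, against -2.7 to -1.51 (median -2.03) in LWLW, with 8 LWLW fetuses above every LWMS fetus. CD163, a scavenger receptor of macrophages, differed by 0.48 ± 0.26 (adjusted p = 0.223) here and by 1.72 with MS sires.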

How the data were processed

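Total RNA of the jejunum of 63 fetuses was measured on 8 slides of one-colour 60-mer arrays. The deposited scanner tables hold the fluorescence intensity of each of 61625 spots after the background and spatial correction of Agilent Feature Extraction 10.10.1.1, per the file headers. The authors' processed log2 values of 39446 probes, made with limma per the labels, served as an alternative. From the intensity (gProcessedSignal), 1319 control spots and spots marked as outliers were dropped, no spot was saturated, and values were log2 signals minus each array's 75th percentile. Probes entered the test where 75% or more of the arrays in any 1 group read them well above background (40515 of 60305 probes). All 63 arrays were fitted in 1 model of 8 group means (limma 3.58.1, R 4.3.3), with Benjamini-Hochberg adjustment over the probes tested and a two-sided threshold of 0.05. A sow term, which the study's own model had, was not used here because the labels used do not tie fetuses to sows. Of the 40515 probes, 99 lacked a value on some of the 18 arrays, and the fit left out those spots only.

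Gene names came from RefSeq accessions, failing these from the study's tables, and failing both from the array's own names. Chromosomes came from NCBI RefSeq (Sscrofa11.1), by accession where 1 matched and otherwise by symbol. A gene in a list stands for its probe of highest mean over the 63 arrays. Probe bases came from the scanner tables and were compared with Biopython 1.88, and figures were drawn with matplotlib 3.10.9. Named genes were called probes with 1 symbol: the 10 largest rises and falls among probes above background on 7 of 9 arrays of each group, up to 5 a direction above background on all arrays of 1 group and none of the other, up to 4 of lowest p per list, the genes of the study's parental table, 6 X-linked genes, and up to 4 of lowest p per difference test. Further probes of CYTB, ND1, ND2, COX1, PBDC1, FAM199X and PRPS2, and members of lists that carry other values, were chosen after their values were seen. A bound on a fold sets each dim array at its lowest signal well above background, or at the probe's own signal where that is higher. The fetuses compared, the gene lists and the named rules were chosen with earlier results of these data known. Some named genes are not reported here. The scripts were tested on simulated data. The alternatives were quantile normalization, median centring, normexp with offset 50, the authors' log2 values, the slide as a block, array weights, the share of probes above background as a covariate, other filters, samples and thresholds, an ordinary linear model, and leaving out each fetus. The number of arrays limits the precision.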

Additional observations from a re-analysis of the deposited data

Results flagged for a closer look

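Of 288 groups of 9 values examined, 43 had a fetus whose gap to its nearest neighbour was large for the group's whole range by Dixon's critical value, where chance gives about 1 in 20. The ratio of gap to range is given for each. In 26 of them the fetus was the LWMS fetus 609, which lay on the side of LWLW for BCL2L15 (0.648), SLC27A2 (0.538), PAFAH2 (0.543), CD5L (0.597), PGM1 (0.57), ABCB11 (0.7), SLC28A1 (0.669), TMEM27 (0.686), MME (0.662), SCARB1 (0.687), SLC15A1 (0.544), SLC38A3 (0.684), SLC43A2 (0.667), ASS1 (0.64), CYP17A1 (0.564), IL18 (0.605), CDK1 (0.716), AS3MT (0.531), SCNN1A (0.609), AQP3 (0.608), CASQ2 (0.498), SLC5A1 (0.674), APOA4 (0.62), SLC4A1 (0.515) and AQP10 (0.625). The unnamed probe A_72_P220482 (0.627) was higher in fetus 609 than in the other LWMS fetuses. For BCL2L15 fetus 609 was at 2.4 and the nearest LWMS fetus at 3.55, and for CDK1 it was at 1.64 and the nearest at 0.83.

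The other LWMS fetuses that stood apart did so for TMEM107 (0.628, fetus 622), CCL2 (0.515, fetus 411), IL1B (0.535, fetus 611) and ND4L (0.507, fetus 402). In LWLW, fetus 670 stood apart for NPM2 (0.641), EMC9 (0.571), CDK1 (0.539), CCNB1 (0.541) and XPO5 (0.507). Fetus 469, which had the lowest share of probes above background, stood apart for AADAT (0.564), ND4L (0.509), GP1BB (0.582), the CYP11A1 probes of 0.508 and 0.62, and the CYTB probes A_72_P726128 (0.543) and A_72_P757587 (0.522). Fetus 572 stood apart for SLA-8 (0.594).

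Effects of the sow that differed between sires, by the interaction term in limma, were those of CYP17A1 (6.68), AQP10 (5.53), CD5L (4.76), MTFP1 (4.72), AADAT (4.27), TMOD3 (3.84), SLC38A3 (3.74), ALDH2 (1.41) and SCARB1 (1.26), each as the log2 difference under LW sires minus that under MS sires. The values of AADAT and CYP17A1 rest partly on LWLW arrays not well above background. Effects that differed between ages, as day 110 minus day 90 under LW sires, were those of G6PC (3.14), SRPX2 (1.76 and 1.32), XPO5 (-1.66), NFE2L3 (-2.29), the unnamed probes A_72_P409313 (-1.73) and A_72_P258182 (1.32), and CYP11A1. Of the 6 probes of CYP11A1, 4 were called, at -6.61, -6.64, -6.8 and -5.82, and these were not above background on any of the 18 arrays at day 110. Whether the array quality of fetus 469 or the position of fetus 609 accounts for any of these values was not tested.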

How the results depend on the processing

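The counts of called probes depended most on which fetuses were used and on how arrays were weighted. Leaving out 1 fetus at a time gave 2435 to 5877 called probes in LWMS minus LWLW, beside 4274. Without fetuses 557, 559, 572 and 575, chosen after seeing the data, the counts were 364 for the sow contrast, 27 for X-linked probes, 6 for list members, 13 for the difference between sires and 7 for that between ages. With array weights the counts were 11351 for the sow contrast, 273 for X-linked probes, 242 for list members, 539 for the difference between sires, 1628 at day 90 and 1080 for the difference between ages. With the share of probes above background as a covariate they were 6878, 324 for the difference between sires and 47 for that between ages. A fit of the 18 arrays alone, with fewer degrees of freedom, gave 2366. Median centring gave 519 probes with MS sires, 42 for the difference between sires and 221 at day 90. The difference between sires was called in 138 probes with the authors' values, 130 without fetuses 484 and 469 and 50 without a filter on dim probes, and normexp gave 70 for the difference between ages. With the stricter threshold (adjusted p up to 0.01, log2 difference from 0.5 up) the counts were 1347, 290 with MS sires, 34 between sires, 161 at day 90 and 9 between ages. The share of called probes that were higher was 43.1%, and 37.1% with normexp, 31.7% without a filter, 50.1% with array weights and 51.6% without the 4 fetuses. The cause of these shifts was not tested.

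Of 144 named probes, 116 kept their direction and side of the threshold after quantile normalization, 119 with median centring, 140 with normexp, 136 with the slide as a block and 58 without the 4 fetuses, where 85 no longer passed. Those that turned direction were not called with all fetuses. They were HSPB3 (0.22, 0.07, 0.07, 0.03 and 0.08 under quantile normalization, median centring, the slide block, array weights and the covariate, and -0.29 to 0.08 when single fetuses were left out), CYP11A1 A_72_P684857 (0.46, 0.11, 0.03 and 0.14 under quantile normalization, median centring, array weights and the covariate, 0.28 without fetuses 484 and 469, and -0.24 to 0.28 when single fetuses were left out), PRPS2 A_72_P408258 (-0.04 and -0.02 under quantile normalization and the authors' values), SRPX2 A_72_P210412 and CYTB A_72_P757587 (0.04 and 0.03 with median centring), MTFP1 (0.01 with array weights) and AQP10 (-0.59 without the 4 fetuses). No paired analysis was possible because each fetus number belongs to 1 fetus and the groups share none. Litter mates could not be told apart from unrelated fetuses here, 9 arrays a group limit the precision, and probes near background give bounds only.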
